A study of Mus musculus with 35 samples.

Results

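Gas5 and 9 numbered Snhg genes were followed through germ cells that lack functional SMG6, the endonuclease that cuts targets of nonsense-mediated decay (NMD). The members were fixed by name, as the gene rows Gas5, Snhg1, Snhg3, Snhg5, Snhg6, Snhg7, Snhg10, Snhg11, Snhg12 and Snhg17, which are 10 of the 24411 gene rows counted. RefSeq lists each as a long noncoding RNA gene on GRCm38. The label of snoRNA host was checked against that annotation. RefSeq places 31 small nucleolar RNAs (snoRNAs) inside introns of 9 members, on the same strand, and none inside Snhg10, in which Ensembl annotates the small Cajal body RNA Scarna13.

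RNA was sequenced from pachytene spermatocytes (Spc), round spermatids (RS) and chromatoid bodies (CB, the RNA-rich granules of the spermatid cytoplasm) of adult mice on a mixed C57Bl/6J and SV129 background. The knockout (cKO) carried Smg6(fx/fx) with an Ngn3Cre transgene, which removes the floxed exon 9 of Smg6 in spermatogonia and their descendants. Littermates without Cre, Smg6(fx/fx) or Smg6(fx/wt), served as controls (CTRL), so that Cre was present in the cKO alone. Spc and RS were enriched by velocity sedimentation, with 3 cKO and 3 CTRL libraries each. The series description gives a single mouse per isolation, whereas the published methods give more testes than a single mouse has, so whether animals were pooled in these samples is not settled. CBs were captured with an antibody against DDX4 from 2 to 4 pooled mice per sample, with 3 cKO and 4 CTRL libraries.

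A snoRNA guides chemical modification of ribosomal and other RNAs. C/D box snoRNAs direct ribose methylation and H/ACA box snoRNAs direct pseudouridylation, and most vertebrate snoRNAs are trimmed out of the introns of a longer host transcript. In a noncoding host the joined exons are a by-product that reaches ribosomes, where a short open reading frame ends upstream of exon junctions, so that NMD can destroy the spliced RNA while the intron-borne snoRNA persists. Gas5 is the classic example, and host genes of this kind often start with the pyrimidine tract that marks genes of the translation machinery.

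The first AUG frame of each host was read from the RefSeq transcript, because a stop codon at least 50 nt upstream of an exon junction is a feature that NMD recognises. Of 18 spliced RefSeq transcripts of the members, 17 (94.4%) had such a junction, against 79.3% of 3997 transcripts of other RefSeq long noncoding RNA genes, so the feature is common in the class. Snhg3 was the exception, with 0 junctions at that distance in its single transcript. The single Snhg10 transcript had 1 such junction. In cKO against CTRL, Snhg10 had log2 fold changes of 0.83 in Spc, 0.11 in RS and -0.09 in CB. The paper found such junctions no more often in upregulated transcripts than in others, in Spc or RS. Whether the junction bears on the changes below was not tested. The frames are shown for the hosts that changed most, for Gas5 and for Snhg3, with start and stop codons in capitals.
Snhg12: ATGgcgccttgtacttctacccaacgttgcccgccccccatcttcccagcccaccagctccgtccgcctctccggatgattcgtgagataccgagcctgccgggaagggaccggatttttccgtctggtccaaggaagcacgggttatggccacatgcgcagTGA
Snhg7: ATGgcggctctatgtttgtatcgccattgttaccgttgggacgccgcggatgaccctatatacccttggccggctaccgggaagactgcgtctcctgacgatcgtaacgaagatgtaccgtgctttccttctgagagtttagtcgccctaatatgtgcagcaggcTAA
Snhg5: ATGaccaagTGA
Gas5: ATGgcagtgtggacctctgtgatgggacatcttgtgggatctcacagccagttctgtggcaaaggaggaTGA
Snhg3: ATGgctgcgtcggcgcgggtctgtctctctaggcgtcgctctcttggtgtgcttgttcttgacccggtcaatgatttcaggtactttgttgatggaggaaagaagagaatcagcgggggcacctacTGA
Snhg12 lies at chr4:132308678-132311024 on the plus strand, and its frame spans positions 38 to 202 of a 606 nt transcript of 5 exons and leaves 3 junctions beyond the limit. The Snhg7 frame (gene at chr2:26637176-26640244, minus strand) leaves 1 junction. The Snhg5 frame (chr9:88521052-88522897, minus strand) holds 3 codons before its stop and leaves 4 junctions. All 8 RefSeq transcripts of Gas5 (chr1:161034601-161038539, plus strand) share the 23-codon frame shown, with 1 to 7 junctions beyond the limit. In Snhg3 (chr4:132351933-132353686, minus strand) the 42-codon frame ends at position 158 of 437 nt in a transcript of 3 exons.

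The start sites of 9 members were found in RefSeq's promoter table on GRCm38.p6. Windows of 15 bases before and 25 bases after the start are shown for 4 hosts. Capitals mark a run of at least 5 pyrimidines (C or T), read on the strand of the gene. The run begins within 5 bases of the start or spans the start.
Snhg12, chr4:132308663-132308702, plus strand: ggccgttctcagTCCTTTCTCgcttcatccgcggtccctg
Snhg7, chr2:26640220-26640259, minus strand: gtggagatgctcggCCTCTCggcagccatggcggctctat
Snhg1, chr19:8723472-8723511, plus strand: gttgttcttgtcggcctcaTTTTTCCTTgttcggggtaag
Gas5, downstream start site, chr1:161035151-161035190, plus strand: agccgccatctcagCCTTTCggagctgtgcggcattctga
Such a run was present at 6 of 11 start sites of the members (54.5%) and at 23.6% of all 32851 start sites in the table. None of the start sites of Snhg5, Snhg10 and Snhg11 had a run that begins within that distance, although the Snhg5 and Snhg10 windows hold pyrimidine runs that begin farther from the start.

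Before the members, the libraries were compared. The Spc and RS libraries held 38129415 to 49940226 counts and the CB libraries 3965541 to 16699210 counts. Smg6 itself could not check the genotype, since its whole-gene level (104 to 217 CPM over all 19 libraries, where CPM are counts scaled to a common library size) includes every exon besides the deleted one, and its difference missed the threshold in Spc, RS and CB (adjusted p = 0.343, 0.797 and 0.815). The labelled cell types were present but not pure, and several marker sums moved with genotype. The 10 late spermatid markers summed to 1960 to 2040 CPM in cKO RS against 28600 to 37700 CPM in CTRL RS, and to 429 to 1390 CPM against 3620 to 7370 CPM in Spc. In RS the 12 macrophage markers summed to 251 to 426 CPM in cKO and 32.9 to 52.4 CPM in CTRL, and the 7 Leydig markers to 28.7 to 304 CPM and 7.79 to 7.96 CPM. In Spc the Leydig sums were 524 to 1090 CPM in cKO and 109 to 352 CPM in CTRL, and those of 9 Sertoli markers were 47.4 to 82.7 CPM and 119 to 315 CPM. The 8 spermatid markers summed to 716 to 904 CPM in cKO RS against 2750 to 2840 CPM in CTRL RS, the 9 Sertoli markers there to 39.8 to 91.2 CPM against 27.8 to 34.4 CPM, and the 7 erythroid markers to 65.2 to 240 CPM against 20.8 to 24.4 CPM. The 8 spermatogonia markers summed to 74.9 to 119 CPM in cKO RS against 40.3 to 50.9 CPM in CTRL RS, and the 6 endothelial markers to 10 to 11.5 CPM against 23.4 to 33.9 CPM. In Spc the macrophage sums were 53.6 to 85.7 CPM in cKO and 40.2 to 43.2 CPM in CTRL, the erythroid sums 1.54 to 3.44 CPM and 10.3 to 19.9 CPM, the spermatogonia sums 65.7 to 112 CPM and 52.2 to 65 CPM, and the endothelial sums 6.73 to 8.92 CPM and 9.01 to 12.1 CPM. The 8 spermatocyte markers summed to 1940 to 2320 CPM in cKO Spc against 1560 to 1790 CPM in CTRL Spc, and to 1120 to 1170 CPM against 883 to 992 CPM in RS. None of these markers was at 0 throughout a group in Spc or RS. Their part in the results below was not tested, and a change in the make-up of the cells cannot be told apart in bulk RNA from a change of RNA per cell.

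The first question was whether the hosts differ between cKO and CTRL spermatocytes. On the means, Snhg12 was 13-fold, Snhg7 6.70-fold and Snhg5 4.24-fold higher in cKO Spc, Gas5 was 2.44-fold and Snhg1 2.08-fold higher, and Snhg3 showed no detectable difference. With the quasi-likelihood test of edgeR, adjusted over all genes by Benjamini-Hochberg, 9 of 10 members rose in cKO Spc and 0 fell, where 14.2% of 17321 genes rose and 14.0% fell. Of the 9, 5 also passed a log2 fold change of 1.5, which 3.50% of genes did in that direction. The median log2 fold change was 1.46 for the members and -0.01 for all genes tested.

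Snhg12, host of 4 snoRNAs, stood at 52.4, 45.7 and 57.9 CPM in cKO Spc and at 3.24, 4.09 and 4.65 CPM in CTRL Spc. The lowest cKO library was far above the highest CTRL library. The log2 fold change was 3.60 ± 0.17 (SE, n = 3 per group, adjusted p = 1.28e-04).

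Snhg7, host of the H/ACA snoRNAs Snora17 and Snora43, had 22.9, 19.2 and 17.6 CPM in cKO and 2.52, 2.82 and 3.58 CPM in CTRL, with no overlap of the groups. Its log2 fold change was 2.64 ± 0.19 (adjusted p = 3.81e-04). Snhg5, host of 2 C/D box snoRNAs, had 52.7, 47.1 and 44.8 CPM against 8.67, 13.9 and 11.5 CPM, and its log2 fold change was 1.98 ± 0.18 (adjusted p = 8.66e-04). Again no cKO library fell within the CTRL range.

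Gas5, host of 8 snoRNAs and known for a role in growth arrest, was at 79.5, 61.8 and 61.9 CPM in cKO Spc and at 20.2, 31.7 and 31.3 CPM in CTRL Spc. The groups did not overlap. Its log2 fold change was 1.19 ± 0.19 (adjusted p = 0.00625). Snhg1, which also hosts 8 snoRNAs, averaged 5.48 ± 0.28 CPM (SD, n = 3) in CTRL and 11.4 ± 0.71 CPM in cKO, and rose by 0.95 ± 0.14 on the log2 scale (adjusted p = 0.00569). Snhg6, host of Snord87, and Snhg17, which lies 14190 bases from Snhg11 on chromosome 2, rose by log2 fold changes of 1.86 ± 0.33 and 1.63 ± 0.14.

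Snhg10 and Snhg11 lay close to the threshold. Snhg10 was at 3.37 to 4.00 CPM in cKO and 1.55 to 2.44 CPM in CTRL (log2 fold change 0.83 ± 0.23, adjusted p = 0.0355), and leaving out any of the 6 libraries ended the call (log2 fold change 0.70 to 1.01, adjusted p 0.0526 to 0.097). Snhg11, a host known for its expression in neurons, was at 5.91 to 14.6 CPM in cKO and 2.47 to 4.34 CPM in CTRL (log2 fold change 1.29 ± 0.39, adjusted p = 0.0443). Its call was kept without cKO replicate 2 and lost without any other library (adjusted p 0.0545 to 0.107). The highest Snhg11 value and the highest Leydig (1090 CPM), macrophage (85.7 CPM) and spermatogonia (112 CPM) sums in Spc belonged to the same library, cKO replicate 3, without which the log2 fold change was 0.79. Over all the alternatives run, adjusted p ranged from 0.00412 to 0.097 for Snhg10 and from 0.006 to 0.107 for Snhg11.

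Snhg3, host of the paired Snora73a and Snora73b, had 31.5, 28.9 and 11.2 CPM in cKO Spc and 16.2, 29.7 and 18.8 CPM in CTRL Spc. The CTRL values lay within the range of the cKO values, and the log2 fold change was 0.04 ± 0.39 (adjusted p = 0.944).

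**Figure D1:**
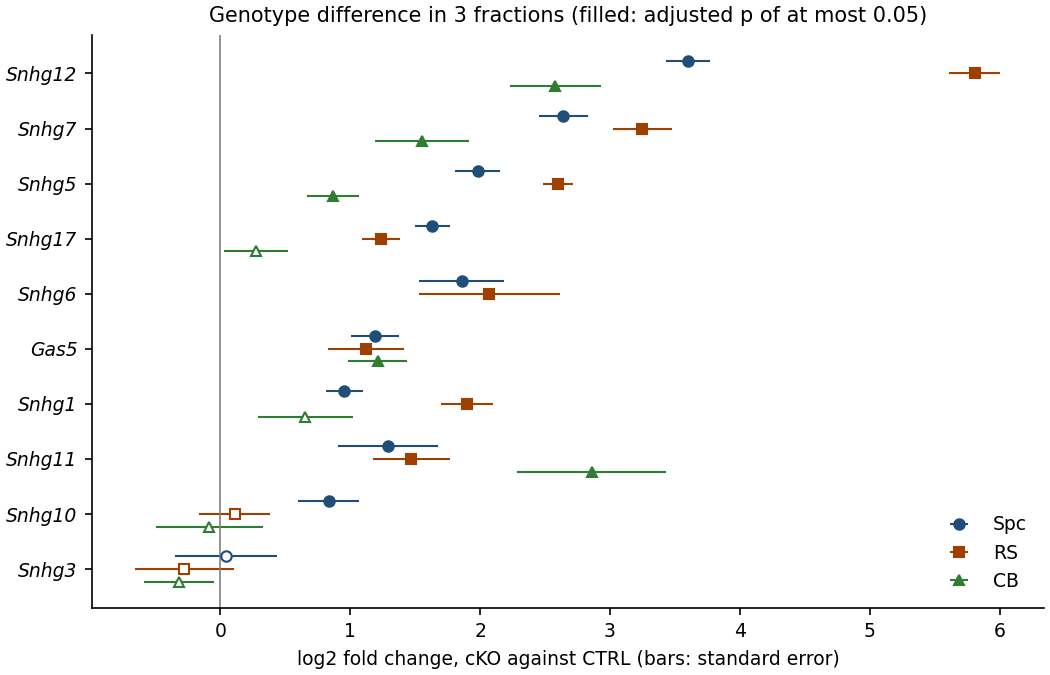
Log2 fold change of each host gene, cKO against CTRL, in Spc, RS and CB, with bars of 1 SE; filled points passed an adjusted p of 0.05. Snhg12 reaches 3.60 in Spc and 5.81 in RS, and Snhg3 lies near 0 in each fraction.

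Round spermatids answered the same question at the next stage. Snhg12 was 56.1-fold higher in cKO RS on the mean, Snhg7 9.49-fold and Snhg5 6-fold, while Snhg3 and Snhg10 showed no detectable difference. In this comparison 8 of 10 members rose and 0 fell, where 40.2% of 17492 genes rose and 32.8% fell, so the background was itself high. Of the members, 5 also passed the log2 fold change of 1.5, against 15.9% of genes. The members' median log2 fold change was 1.68, and that of all genes was 0.17. Scaling by library size alone moved the all-gene median to 0.72 and the genes that rose and fell from 7028 and 5732 to 10188 and 3259, while the members stayed at 8 and 0.

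Snhg12 had 39.1, 33.0 and 32.4 CPM in cKO RS and 0.746, 0.660 and 0.456 CPM in CTRL RS. Every cKO library was far above every CTRL library. The log2 fold change was 5.81 ± 0.20 (adjusted p = 2.59e-07), and 0.0515% of genes tested had a higher value.

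Snhg7 had 5.60, 6.25 and 5.47 CPM in cKO and 0.498, 0.720 and 0.609 CPM in CTRL, a log2 fold change of 3.25 ± 0.23. Snhg5 had 35.1, 38.4 and 34.4 CPM against 6.52, 5.76 and 5.69 CPM, a log2 fold change of 2.60 ± 0.12. Neither gene had a cKO library near its CTRL range.

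Snhg1 was at 10.5, 9.76 and 7.65 CPM in cKO RS and 2.88, 2.16 and 2.53 CPM in CTRL RS, with a log2 fold change of 1.90 ± 0.20. Gas5 rose less evenly, with 26.5, 48.7 and 56.3 CPM in cKO against 24.9, 21.4 and 14.7 CPM in CTRL. Its lowest cKO library was just above its highest CTRL library, and the log2 fold change was 1.12 ± 0.29 (adjusted p = 0.0081). Gas5 thus ranked lower among all genes here, where 24.2% of genes had a higher log2 fold change, than in Spc, where 6.51% had.

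Snhg6, Snhg11 and Snhg17 also rose in RS, by log2 fold changes of 2.07 ± 0.54, 1.47 ± 0.30 and 1.24 ± 0.15. The highest Snhg11 value in RS (5.66 CPM) and the highest spermatogonia sum (119 CPM) were in cKO replicate 1. The highest Leydig (304 CPM) and macrophage (426 CPM) sums in RS were in cKO replicate 3. Snhg10 was at 1.5 to 2.69 CPM in cKO and 1.77 to 2.19 CPM in CTRL (log2 fold change 0.11 ± 0.28, adjusted p = 0.734). Snhg3 was at 2.62, 4.12 and 5.51 CPM in cKO and 7.63, 3.15 and 4.17 CPM in CTRL, overlapping, with a log2 fold change of -0.28 ± 0.38 (adjusted p = 0.527). The 8 calls in RS were kept when any library was left out.

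**Figure D2:**
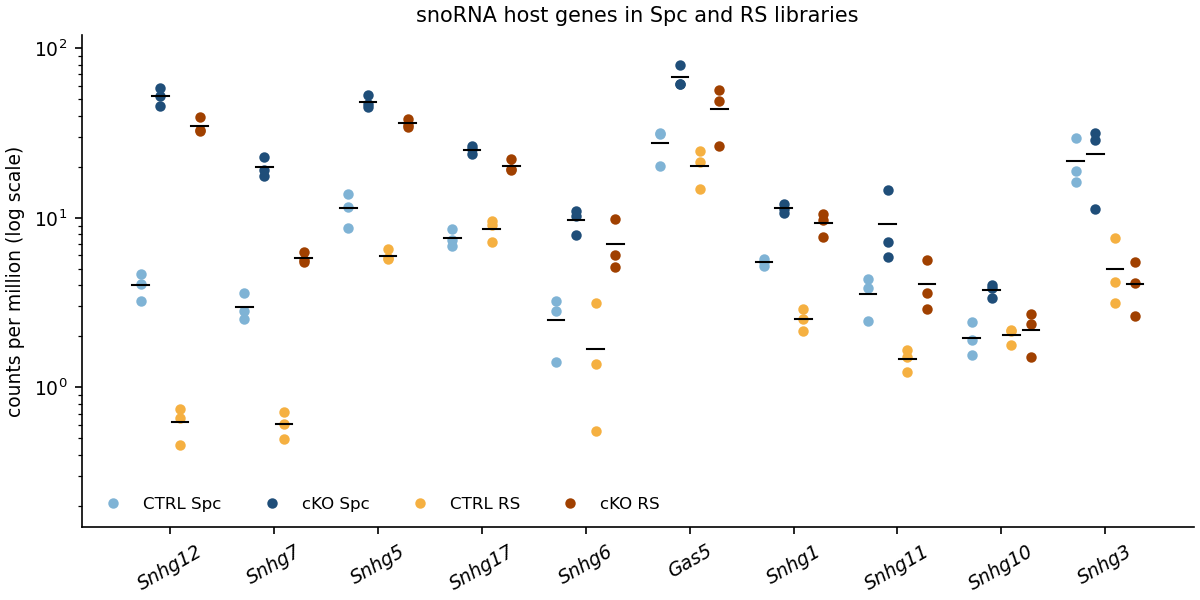
CPM of each host gene in every Spc and RS library, on a log axis, with a bar at each group mean. Snhg12 separates 32.4 to 39.1 CPM in cKO RS from 0.456 to 0.746 CPM in CTRL RS, and the points of Snhg3 overlap between genotypes in both stages.

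The chromatoid body libraries asked which host RNAs differed between the granule fractions of cKO and CTRL testes. No whole-cell library entered this fit, so it does not measure enrichment in the granule over the cell. Snhg12, Snhg7, Gas5, Snhg5 and Snhg11 were higher in cKO CB, and the other members tested were not separated. Snhg6 was under the count minimum (0.402 to 1.96 CPM in the 7 libraries) and was not tested. Of the 9 members tested 5 rose and 0 fell, where 16.6% of 14051 genes rose and 18.9% fell. Snhg12 met the minimum of 10 counts in 3 libraries in the cKO libraries alone and Snhg10 in the CTRL libraries alone, and of the other 7 members 4 rose. Of the 5, 3 passed a log2 fold change of 1.5, against 5.42% of genes, and the members' median was 0.87 against 0.04 for all genes. Scaling by library size alone moved the all-gene median to -0.10 and the genes that rose and fell from 2328 and 2651 to 1553 and 2727, while the members stayed at 5 and 0. In these libraries the late spermatid markers summed to 347 to 391 CPM in cKO and 1650 to 3610 CPM in CTRL, the spermatid markers to 137 to 165 CPM and 318 to 409 CPM, and the Sertoli markers to 18.8 to 23.5 CPM and 11.2 to 12.5 CPM. The spermatogonia markers summed to 25 to 82.4 CPM in cKO and 14.4 to 21.9 CPM in CTRL, and the erythroid markers to 7.04 to 15.4 CPM and 4.36 to 6.71 CPM. Their part in the CB results was not tested.

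Snhg12 had 4.4, 6.5 and 6.39 CPM in the cKO CB libraries and 0.772, 0.693, 1.44 and 1.01 CPM in the CTRL CB libraries. The groups did not overlap, and the log2 fold change was 2.58 ± 0.35 (adjusted p = 2.23e-04). Gas5 had 51.9, 31.0 and 28.7 CPM in cKO against 12.8 to 17.9 CPM in CTRL (log2 fold change 1.21 ± 0.23, adjusted p = 0.00143). Snhg7 rose by 1.55 ± 0.36 and Snhg5 by 0.87 ± 0.20 on the log2 scale, neither with any overlap of the groups.

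Snhg11 behaved less evenly. It stood at 6.51, 45.5 and 16.1 CPM in the cKO libraries MKO2, MKO3 and MKO4, in which the Leydig markers summed to 31.1, 197 and 296 CPM, the macrophage markers to 12, 66.9 and 63.9 CPM and the spermatogonia markers to 25, 82.4 and 32.3 CPM. The spermatogonia and macrophage sums had the same order over these 3 libraries as Snhg11, and the Leydig sums did not. Among CTRL libraries, the highest Snhg11 value (6.87 CPM) and the highest Leydig (43.6 CPM), macrophage (15.8 CPM) and spermatogonia (21.9 CPM) sums were all in MVHCTRL3. The log2 fold change of Snhg11 was 2.86 ± 0.57 (adjusted p = 0.0023), its groups overlapped, and leaving out MKO3 gave 1.97. Without MKO3 and MKO4, a choice made after their marker sums were seen, MKO2 is the lone cKO library and has to be assumed to vary like the CTRL libraries. Snhg11 was then at 1.18 and its call was lost (adjusted p = 0.213, range over its alternatives 3.90e-07 to 0.213). The values of Gas5, Snhg5 and Snhg7 without both libraries were 1.75, 1.21 and 1.67, and Snhg12 was under the count minimum.

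Snhg1, Snhg3, Snhg10 and Snhg17 missed the threshold in CB, with log2 fold changes of 0.65 ± 0.37, -0.32 ± 0.27, -0.09 ± 0.41 and 0.27 ± 0.25. Snhg1 passed when MKO4 was left out, at 1.10 (adjusted p = 0.0257, range over its alternatives 0.0257 to 0.672). Without MKO3 and MKO4, where MKO2 is the lone cKO library, the log2 fold change of Snhg1 was 1.29. MKO4 had 2.70 CPM of Snhg1, and the other cKO libraries had 8.10 and 5.89 CPM.

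Control spermatids were then compared with control spermatocytes, since pachytene cells precede round spermatids in the lineage. These libraries are shared with the genotype comparisons above. Other cell types moved with stage in this fit, where 7 of 7 Leydig and 9 of 9 Sertoli markers were lower in RS and 4 of 5 erythroid and 10 of 10 late spermatid markers higher, and their part was not tested. The hosts were lower in RS for 6 of 10 members and higher for 0, against 40.5% and 35.6% of 17046 genes. The median log2 difference was -1.14 for the members and -0.10 for all genes. Scaling by library size alone moved the all-gene median to -0.52 and the genes higher and lower from 6071 and 6900 to 4391 and 9040, with 7 members lower and 0 higher. Snhg12 fell by 2.79 ± 0.26 and Snhg7 by 2.40 ± 0.25 on the log2 scale, followed by Snhg3 (2.23 ± 0.37), Snhg11 (1.39 ± 0.26), Snhg1 (1.24 ± 0.17) and Snhg5 (1.04 ± 0.19), each a fall. Snhg10 and Snhg17 were at -0.06 and 0.07 and Snhg6 at -0.69, none past the threshold. Gas5 missed it at -0.56 (adjusted p = 0.0647) and passed without CTRL_Spc replicate 1 (-0.76) or CTRL_RS replicate 1 (-0.72), and Snhg6 passed without CTRL_RS replicate 3 (-1.47). Over their alternatives adjusted p ranged from 0.00811 to 0.179 for Gas5 and from 0.0487 to 0.655 for Snhg6.

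The same stages were compared in cKO, where 6 of 7 Leydig markers were lower in RS and 12 of 12 macrophage and 5 of 5 erythroid markers higher. RS were lower for 7 of 10 members and higher for 0, where 26.1% of 17709 genes were lower and 19.1% higher, with medians of -0.64 and 0.02. Scaling by library size alone moved the all-gene median to 0.16, turned the balance of genes higher and lower from 3388 and 4619 to 4553 and 3577, and left 4 members lower and 0 higher. Snhg12 fell by 0.62 ± 0.12 and Snhg7 by 1.82 ± 0.15 on the log2 scale, and Snhg3 fell by 2.57 ± 0.43. Snhg1 was at -0.33 ± 0.17 and missed the threshold (adjusted p = 0.138). The calls of Snhg10 (-0.82) and Snhg17 (-0.36) were lost when any library but cKO_RS replicate 2 was left out. Snhg11 (-1.25) was lost without cKO_Spc replicate 3, cKO_RS replicate 2 or cKO_RS replicate 3, at -0.72, -1.17 and -1.01, and Snhg5 (-0.46) without cKO_Spc replicate 1, at -0.34. The number of calls was 4 without cKO_Spc replicate 1 or 3. Gas5, at -0.66, passed without cKO_RS replicate 3 (-0.86), and Snhg6, at -0.51, without cKO_RS replicate 2 (-0.84).

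Whether the genotype difference itself depended on the stage was tested with an interaction term over the 12 Spc and RS libraries. Snhg12 (2.10 ± 0.26, adjusted p = 3.63e-04) and Snhg1 (0.83 ± 0.23, adjusted p = 0.0138) had a larger cKO to CTRL difference in RS than in Spc. These were 2 of 10 members higher and 0 lower, where 20.5% of 18171 genes were higher and 21.1% lower. Both calls were kept when any library was left out. Snhg17 (-0.51, adjusted p = 0.0502), Snhg5 (0.50, adjusted p = 0.0778) and Snhg10 (-0.84, adjusted p = 0.0746) missed the threshold, and the count rose to 4 without cKO_RS replicate 2, where Snhg10 (-1.01) and Snhg17 (-0.57) also passed. Snhg17 passed as well without CTRL_Spc replicate 2 (-0.60) or CTRL_RS replicate 3 (-0.62), and Snhg5 without CTRL_Spc replicate 1 (0.66). With counts summed over Ensembl transcripts Snhg17 passed at -0.57 (adjusted p = 0.035) and Snhg3 at -1.43 (adjusted p = 0.0232), over ranges of 0.0244 to 0.62 and 0.0232 to 0.99 among their alternatives. Snhg3 was at -0.43 on the gene counts, Snhg7 at 0.50 (adjusted p = 0.146), and Gas5, Snhg6 and Snhg11 at -0.18, 0.09 and 0.08, none past the threshold. With library-size scaling Snhg5 and Snhg7 passed, both at 1.15. That scaling moved the all-gene median of this term from -0.07 to 0.57 and the genes higher and lower from 3733 and 3843 to 8037 and 553.

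**Figure D3:**
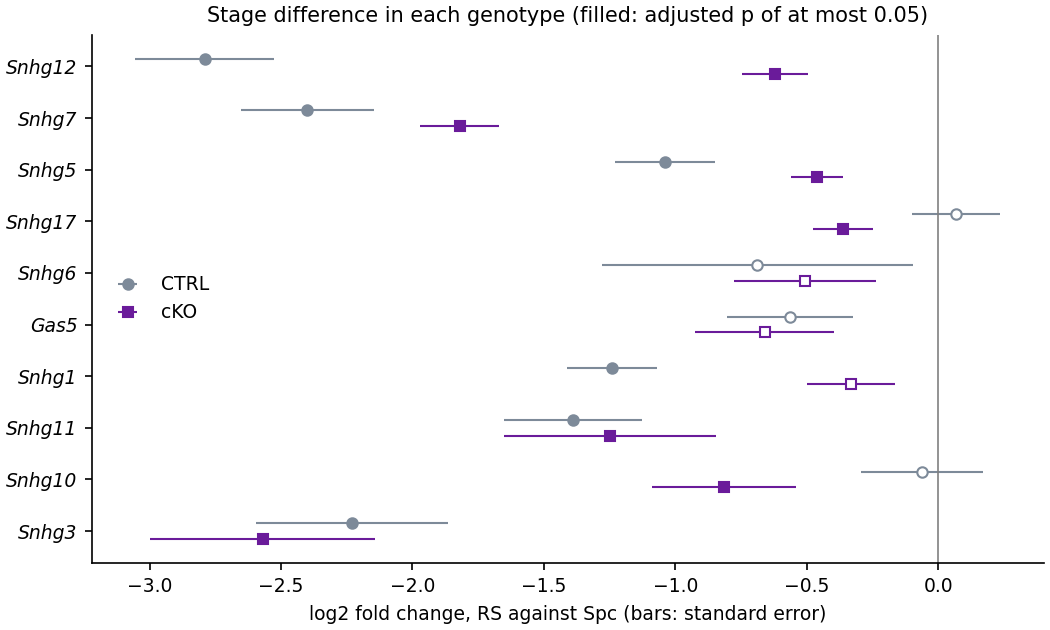
Log2 difference of RS against Spc for each host gene, in CTRL and in cKO, with bars of 1 SE; filled points passed an adjusted p of 0.05. Snhg12 is at -2.79 in CTRL and -0.62 in cKO, and Snhg3 is at -2.23 and -2.57.

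The levels of the hosts can be ordered across the 4 groups. Snhg1, Snhg5, Snhg7 and Snhg12 were highest in cKO Spc, then cKO RS, then CTRL Spc and lowest in CTRL RS, and no neighbouring groups in that order overlapped in their ranges. Gas5 had the same order of means, but its cKO RS range overlapped CTRL Spc and its CTRL Spc range overlapped CTRL RS. Snhg3 instead was ordered by stage, with the Spc groups above the RS groups and the genotypes overlapping within each. Per kilobase of exon, Snhg3 (49.4 CPM per kb) and Gas5 (44.8 CPM per kb) were the most abundant hosts in CTRL Spc, and Snhg7 stood at 4.01 CPM per kb.

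Across the 12 libraries the log2 level of Snhg7 had a Pearson r of 0.988 with the mean of the other members, and Snhg3 had 0.333, as a description of libraries that share genotype and stage. The genes whose profile over the same libraries was most like the members' mean, out of 14852 genes, were Srsf7 (r = 0.992), a splicing factor, Exoc5 (0.991), a subunit of the exocyst, Hps5 (0.99), Npepps (0.988), an aminopeptidase, and Mmaa (0.987). Srsf7 averaged 103 CPM in CTRL Spc, 238 CPM in cKO Spc, 61.3 CPM in CTRL RS and 142 CPM in cKO RS.

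Snhg3 and Snhg12 lie 40908 bases apart on chromosome 4, on opposite strands. Reads counted per Ensembl transcript bear on the Snhg3 values. Among the 62 transcripts of 7 members in the transcript table, Snhg3 was the gene with all 5 of its transcripts sharing exon bases with Rcc1, which encodes the chromatin-bound exchange factor of the GTPase Ran. Transcript Snhg3-205 (ENSMUST00000155816) has an exon of 107 bases, chr4:132348014-132348120 on GRCm38, that lies outside the RefSeq gene Snhg3 and wholly within Rcc1 exon sequence.

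In RS, Snhg3-205 had 44.9, 65.0 and 66.3 counts in cKO and 296, 228 and 300 counts in CTRL, a log2 fold change of -2.73 ± 0.18 (adjusted p = 1.24e-05). Rcc1 itself fell in RS by 2.29 ± 0.13, from 318 ± 40.6 to 64.7 ± 8.66 CPM. The other 4 Snhg3 transcripts lay between -0.29 and -0.06 and missed the threshold. Counts summed over the Ensembl transcripts gave Snhg3 a fall of 1.29 in RS (adjusted p = 0.00174, range over its alternatives 0.00174 to 0.962), which the gene count did not show.

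Most tested transcripts of the other hosts rose. In Spc 58 of the 62 transcripts were tested, and 53 rose and 0 fell, against 16.1% and 12.5% of 57631 transcripts. All 7 transcripts of Snhg12 rose, by log2 fold changes of 3.14 to 3.82, as did all 25 of Gas5 (0.95 to 1.34), 6 of Snhg5 and 5 of Snhg6. The 5 transcripts of Snhg3 lay between -0.25 and 0.13. In RS 55 were tested, and 48 rose and 1, Snhg3-205, fell, against 38.9% and 36.0% of 57133 transcripts. The minimum of 20 counts in 3 libraries tilts part of these counts towards a rise, through transcripts that met it in the cKO libraries alone. These were 13 of the 58 in Spc and 22 of the 55 in RS, among the latter all 7 of Snhg12, 5 of Snhg6 and 2 of Snhg5, and each of them rose. Of the transcripts that met the minimum in both groups, 40 of 45 rose and 0 fell in Spc, and 26 of 33 rose and 1 fell in RS.

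Snhg12-204 (ENSMUST00000137343) had 273, 212 and 230 counts in cKO RS and 2.75, 2.65 and 2.04 counts in CTRL RS. Counts of reads shared by several transcripts were split by the authors, so transcripts of a gene are not independent. Snhg17-204, a transcript with a retained intron and the highest mean count in RS, had a log2 fold change of 0.34 ± 0.17 (adjusted p = 0.111), while its 8 other transcripts rose. Without cKO_RS replicate 3 it passed, at 0.62, and with library-size scaling, at 0.87. In CB 9 transcripts were tested, and 4 rose and 1 fell, against 17.8% and 18.1% of 30623 transcripts. The one that fell was again Snhg3-205 (-0.79 ± 0.23, adjusted p = 0.0209), a call lost without MKO3 (-0.73) or MKO4 (-0.69), and the number called was 3 without MCTRL5. The minimum was met in both groups by 3 of the 9, of which 1 rose, and Snhg3-205 met it in the CTRL libraries alone.

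**Figure D4:**
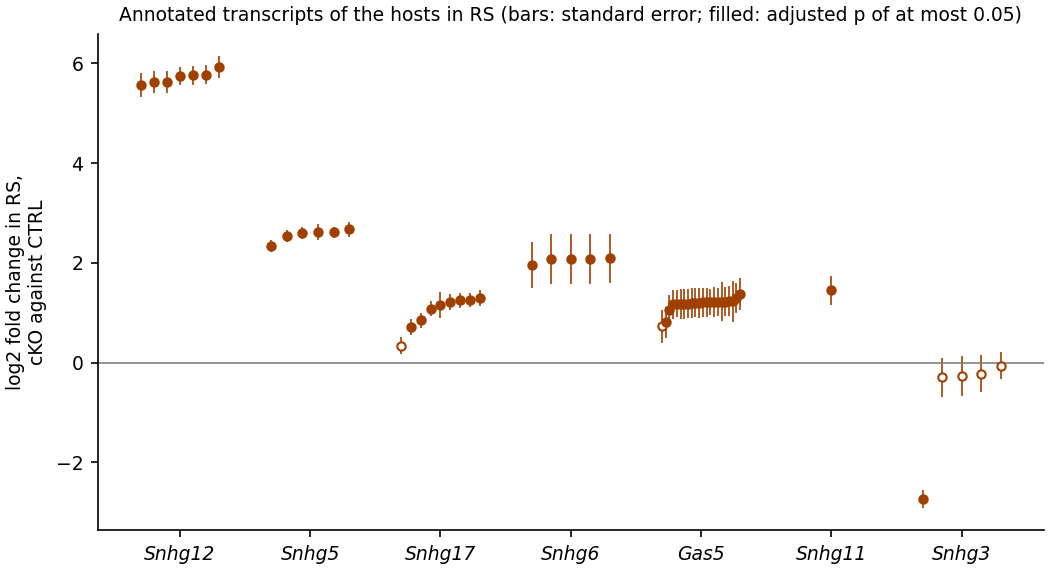
Log2 fold change of each tested Ensembl transcript of the host genes, cKO against CTRL, in RS, with bars of 1 SE; filled points passed an adjusted p of 0.05. The Snhg12 transcripts, which met the count minimum in the cKO libraries alone, lie between 5.56 and 5.92, and Snhg3-205 is the point at -2.73.

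The intron-borne snoRNAs themselves could be followed in the CB libraries alone, since those were made from total RNA, while Spc and RS RNA was selected for poly(A). Of the 31 snoRNAs, 9 had a row of their own in the gene table and 3 passed the count minimum in CB. Their sequences on GRCm38 are shown, with the D box or the terminal ACA in capitals where it was found.
Snord22, in Snhg1, chr19:8725866-8725991, plus strand: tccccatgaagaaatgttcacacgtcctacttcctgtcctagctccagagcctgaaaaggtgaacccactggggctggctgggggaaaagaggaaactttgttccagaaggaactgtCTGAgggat
Snora17, in Snhg7, chr2:26639190-26639321, minus strand: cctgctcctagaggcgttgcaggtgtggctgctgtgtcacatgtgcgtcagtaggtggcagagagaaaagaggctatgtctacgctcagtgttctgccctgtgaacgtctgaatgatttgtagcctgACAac
Snora44, in Snhg12, chr4:132309953-132310069, plus strand: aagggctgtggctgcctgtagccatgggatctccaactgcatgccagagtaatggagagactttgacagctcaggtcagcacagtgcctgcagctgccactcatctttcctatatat
Snord22 was at 52.0 to 61.8 CPM in cKO CB and 11.6 to 39.1 CPM in CTRL CB, and rose by a log2 fold change of 1.25 ± 0.29 (adjusted p = 0.00599). Snora44 rose by 1.83 ± 0.46 (adjusted p = 0.00869), from sums of 31 counts over the CTRL libraries and 39 counts over the cKO libraries. Snora17 was at 0.98 ± 0.41 (adjusted p = 0.0787).

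These 2 of 3 calls stand against 16.6% of genes that rose in CB. The gene counts include 110 snoRNA rows, of which 43 were tested in CB, and 15 rose and 0 fell among them, with a median log2 fold change of 0.88, so a rise was not particular to the snoRNAs of the members. Snora73b, in Snhg3, which has a row in the Ensembl table, rose by 1.14 ± 0.36 there (adjusted p = 0.0311), and Snora73a was at 1.01 ± 0.42 (adjusted p = 0.0851). Unspliced host RNA over a snoRNA cannot be told apart from the snoRNA in these counts.

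Other genes of the pathway were read for comparison. Their counts stand against 40.2% of all genes that rose and 32.8% that fell in RS, 14.2% and 14.0% in Spc, and 16.6% and 18.9% in CB. Of 12 further noncoding genes listed as snoRNA hosts, RefSeq places a snoRNA inside 11 and none inside Snhg20, which passed in none of the 3 genotype comparisons. In the list 11 were tested in RS, and 7 rose and 1 fell. Of the 11, 6 met the count minimum in both groups, of which 5 rose and 0 fell. Snhg4 and Snhg18, which rose, met it in the cKO libraries alone, as did Snhg20 (log2 fold change 0.90), which was not called. Snhg9, which fell, met it in the CTRL libraries alone. Such a row is tilted towards a difference but is not bound to differ. In Spc 6 of 12 rose and 0 fell, and in CB 4 of 7 rose and 0 fell. Zfas1, an antisense host, rose by 3.23 ± 0.22 in RS, from 0.836 ± 0.168 to 7.82 ± 0.618 CPM (SD, n = 3). Epb41l4aos rose by 3.12 ± 0.15 and Snhg16 by 2.91 ± 0.20. Snhg9 was the one that fell, by 1.80 ± 0.36, from counts of 24 to 32 in CTRL RS to 8 to 14 in cKO RS.

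Protein-coding snoRNA hosts, whose spliced exons encode a protein, were spread around the background. In RS 11 of 26 rose and 9 fell with a median log2 fold change of 0.15, in Spc 3 rose and 1 fell, and in CB 5 of 25 rose and 0 fell. With library-size scaling the RS counts were 20 and 1, so the balance between them rests on the scaling. The further noncoding hosts numbered 9 and 1 with that scaling. Tnpo2, an import receptor, and Taf1d, a subunit of the RNA polymerase I selectivity factor, both rose by 2.59 in RS, and Dkc1, the pseudouridine synthase of H/ACA particles, rose by 1.74 ± 0.25.

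Of 8 snoRNP core proteins, 3 rose and 2 fell in RS, 3 of 7 rose and 2 fell in CB, and 0 rose or fell in Spc, where edgeR's smallest unadjusted p among them was 0.0695, that of Nhp2l1. Dkc1 counts here as well. In RS Nop56, a scaffold of C/D box particles, rose by 1.09 ± 0.21 on the log2 scale, and Nhp2l1, a protein that binds box C/D RNA, fell by 1.10 ± 0.07. Library-size scaling gave 6 higher and 1 lower in RS. Of 10 NMD factors, 5 rose and 2 fell in RS, or 8 and 2 with library-size scaling, 4 rose and 0 fell in Spc, and 4 rose and 1 fell in CB. In RS, where 40.2% of all genes rose and 32.8% fell, the counts of both lists lay near the background. The largest rises among the NMD factors in RS (log2 fold change ± SE) were of the helicase Upf1 (2.18 ± 0.11), Smg9 (1.79 ± 0.26), a regulator of the SMG1 kinase, and Upf2 (1.24 ± 0.07), the bridge between UPF1 and UPF3.

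**Figure D5:**
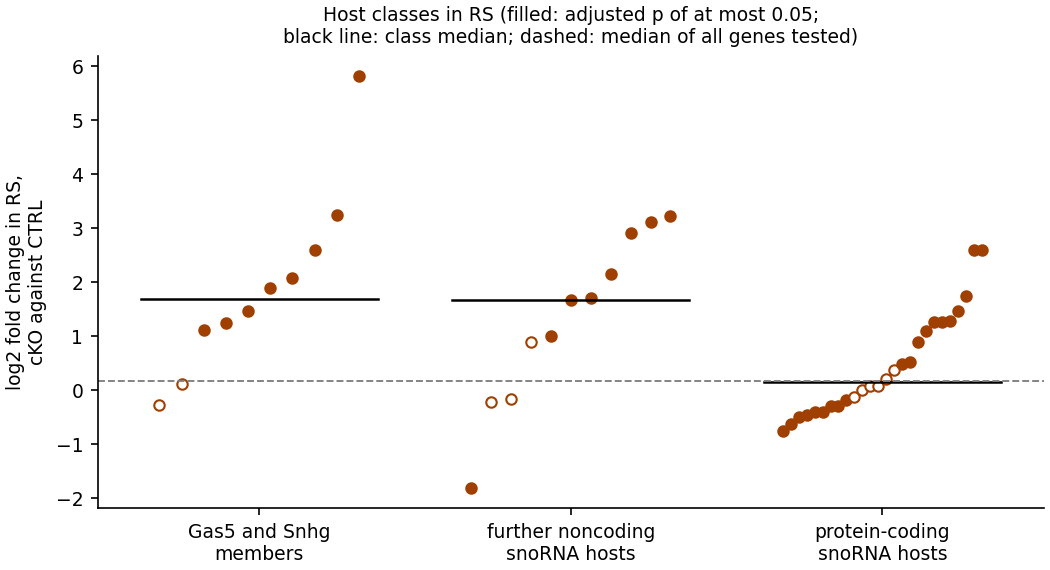
Log2 fold change, cKO against CTRL, in RS, of the members, the further noncoding hosts and the protein-coding hosts, each point a gene, with a black line at the class median and a dashed line at the median of all genes. Filled points passed an adjusted p of 0.05, and the class medians are 1.68, 1.67 and 0.15, of which that of the further noncoding hosts is the value of Snhg18, a gene that met the count minimum in the cKO libraries alone.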

How the data were processed

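Reads were trimmed, aligned and counted by the authors, and the submitters' processing notes name cutadapt 2.8, STAR 2.7.1a and featureCounts 2.0.1. The deposited gene tables hold whole-number read counts for 24411 genes and 1146 repeat families, made with TEtranscripts in reverse-stranded mode. The deposited Ensembl tables hold estimated counts for 110379 transcripts, in which the authors split reads shared by several transcripts in fractions with strand-aware counting. Genes on opposite strands are therefore separated, and exon bases shared on the same strand are not.

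Each comparison was fitted on the whole gene table with edgeR 4.0.16 (R 4.3.3), TMM scaling and the quasi-likelihood test, two-sided, for rows with at least 10 counts in 3 libraries of the fit. P-values were adjusted by Benjamini-Hochberg over all genes tested. A gene rose or fell at an adjusted p of at most 0.05. Transcript counts were rounded and needed 20 counts in 3 libraries. SE is the log2 fold change divided by the root of its F statistic. CPM used TMM over the 12 Spc and RS libraries together and over the CB libraries apart. Genome features and sequences came from RefSeq on GRCm38.p6, and Snhg6 had no entry in the promoter table.

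The members, gene lists and tests were chosen with earlier results of these data known. All members were named in every fit. Of each pathway list the 3 largest changes in RS past the threshold were named, of the transcripts the most abundant, the highest and the lowest in RS, and of the snoRNAs those tested in CB. Snhg9 was named after its values were seen. Snhg15, Snhg16, Zfas1, Epb41l4aos, Rack1 and Snu13 were read under older symbols of the table, and Nhp2l1 is Snu13. CB libraries are named by their column headings, which give the genotype but not the sample. Same-numbered libraries did not deviate together as a rule, although cKO_RS and cKO_Spc did for replicates 2 and 3 (r = 0.623 and 0.352). No pairing was used. Replicates of each group differed by more than sampling noise. The alternatives were DESeq2 1.42.0, library-size scaling, DESeq2 size factors, no count filter, counts summed over Ensembl transcripts, a replicate block and leaving out each library. The small RNA libraries were not used here.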

Additional observations from a re-analysis of the deposited data

Results flagged for a closer look

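The difference between cKO and CTRL changed with stage for Snhg12 and for Snhg1, by the interaction term of edgeR's quasi-likelihood test. Snhg12 rose by 5.81 in RS and 3.60 in Spc on the log2 scale, with an interaction of 2.10 ± 0.26 (adjusted p = 3.63e-04, range over its alternatives 1.02e-11 to 0.00156). The interaction of Snhg1 was 0.83 ± 0.23 (adjusted p = 0.0138, range over its alternatives 4.49e-04 to 0.0365), from 1.90 in RS and 0.95 in Spc. In the same term 9 of 9 Sertoli, 4 of 5 erythroid and 6 of 12 macrophage markers were higher and 6 of 10 late spermatid markers lower, and their part in these differences was not tested.

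A library far from its group was looked for in the CTRL CB group of 4, gene by gene for the members and in 9 such groups in all. Snhg11 was the case, with 6.87 CPM in MVHCTRL3 against 1.59 to 2.49 CPM in the other 3 libraries. The gap to the nearest library was 0.829 of the range of the group, just past Dixon's 95% critical value. Chance passes it in about 1 of 20 groups. MVHCTRL3 also had the highest Leydig, macrophage and spermatogonia sums of the CTRL CB libraries (43.6, 15.8 and 21.9 CPM), and without it the Snhg11 log2 fold change in CB was 3.45. The part of these markers in the value was not tested.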

How the results depend on the processing

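The counts of members called in Spc (9, 7 to 8 without a library), RS (8, unchanged without any library), CB (5, 5 to 6) and RS against Spc in CTRL (6, 6 to 7), of transcripts in Spc (53, 49 to 52) and RS (49, 35 to 50) and of snoRNAs in CB (2, 2 in each) stayed within 1.5 times the reported count under every alternative run. In RS the 7 Snhg12 transcripts drop out when a cKO library is left out, because the minimum of 20 counts in 3 libraries can then not be met. Members lower in cKO RS against Spc (7) numbered 4 with library-size scaling and 3 with counts summed over Ensembl transcripts, in which 7 members have transcripts, and 4 to 7 without a library. The interaction count (2) was 4 with library-size scaling and 2 to 4 without a library, and the transcripts called in CB (5) were 3 with library-size scaling and 3 to 6 without a library.

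Changes of sign occurred for values that missed the threshold. With library-size scaling Snhg3 in RS was 0.28, Snhg17 in RS against Spc of CTRL -0.35, and the interactions of Gas5, Snhg3 and Snhg17 were 0.47, 0.23 and 0.14. Snhg3 was -0.0427 in Spc with the replicate block, and in CB it was 0.31 with summed Ensembl counts and 0.23 with MKO2 alone, where Snhg10 was 0.31. Leaving out a library gave Snhg3 -0.18 to 0.39 in Spc, -0.53 to 0.16 in RS and -0.772 to 0.0122 for the interaction, Snhg10 -0.0256 to 0.375 in RS, -0.28 to 0.18 in CB and -0.22 to 0.11 for RS against Spc in CTRL, where Snhg17 was -0.0156 to 0.198. The interactions were -0.368 to 0.0855 for Gas5, -0.33 to 0.90 for Snhg6 and -0.23 to 0.58 for Snhg11, and Snhg3-205 in Spc was -0.452 to 0.0926. The causes were not tested.

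The replicate block, with same-numbered libraries paired, gave 8 members higher in Spc and in RS, 6 lower in CTRL RS, 8 lower in cKO RS, an interaction count of 2, and 52 and 46 transcripts called in Spc and RS. Correlations of the deviations of same-numbered libraries ran from -0.322 to 0.623 and did not pair them throughout. Those of cKO RS with cKO Spc were -0.0772, 0.623 and 0.352. In Spc, RS and both stage comparisons some libraries correlated best with another number. No paired analysis was possible for CB because its columns carry no replicate numbers of the labels. Depth limits the CB values, where Snhg6 and most snoRNAs were under the count minimum.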
